A study of Mus musculus with 34 samples.

Results

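Expression of 9 genes used to mark the progenitors of white fat cells (Pdgfra, Pdgfrb, Dpp4, Pi16, Cd34, Ly6a, Pparg, Zfp423 and Dlk1) was followed in the stromal vascular fraction (SVF) of mouse visceral fat, out of 32098 genes listed per library. The genes were chosen by name from what is known of adipose progenitors, and each was found once in both deposited tables. Earlier results of these data were known when they were chosen. The SVF is what sediments from fat digested with collagenase once the floating adipocytes are removed, and it holds progenitors together with immune, endothelial, mural and mesothelial cells. It came from the perigonadal fat of male C57BL/6J mice (strain C57BL/6 in the sample labels), and its red cells were lysed before RNA was extracted. Feeding began at 6 weeks of age with a high fat diet (HFD, 60% of kcal from fat) or a low fat control diet (CHOW), and tissue was taken after 8, 20 or 34 weeks, at about 14, 26 and 40 weeks of age, following a fast. No other treatment or genotype was given for any of the 6 groups. CHOW had 4 libraries at 8 weeks, 5 at 20 weeks and 7 at 34 weeks, and HFD had 6 at each time, 34 in all. Levels are given in TPM, a gene's share of all transcripts of its library after correction for length, so that different genes can be compared within a library. The sequencing depth of the libraries is unknown, since TPM keeps no total.

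Fat cell progenitors are fibroblast-like cells that lie in the connective tissue and along the vessels of the depot. The platelet-derived growth factor receptors encoded by Pdgfra and Pdgfrb, and the surface proteins encoded by Cd34 and Ly6a (Sca-1), are the usual handles for isolating them. Dpp4, a cell-surface peptidase, and Pi16, a secreted or membrane-bound peptidase inhibitor, mark the multipotent interstitial progenitors from which committed preadipocytes arise. Zfp423, a zinc finger protein, and Pparg, the nuclear receptor that drives the fat cell programme, mark commitment, and Dlk1 (Pref-1) encodes a protein that holds preadipocytes back from differentiation.

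Dpp4 (ENSMUSG00000035000, chromosome 2, 62330073 to 62412231, minus strand) had the largest called change among the 9 genes, and Pdgfra (ENSMUSG00000029231, chromosome 5, 75152292 to 75198215, plus strand) is a general progenitor marker whose level in TPM did not pass the test between diets at any time. The 250 bases before the RefSeq transcript start of each are shown, from the minus strand of chr2:62412232-62412481 and the plus strand of chr5:75152001-75152250 (GRCm38.p6), where the gencode M21 annotation used for gene positions has no exon.
Dpp4: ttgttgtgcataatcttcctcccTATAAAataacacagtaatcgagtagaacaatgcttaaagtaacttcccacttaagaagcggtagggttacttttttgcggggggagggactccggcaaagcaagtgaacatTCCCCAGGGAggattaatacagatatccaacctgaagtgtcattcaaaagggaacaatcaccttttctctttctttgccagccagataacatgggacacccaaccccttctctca
Pdgfra: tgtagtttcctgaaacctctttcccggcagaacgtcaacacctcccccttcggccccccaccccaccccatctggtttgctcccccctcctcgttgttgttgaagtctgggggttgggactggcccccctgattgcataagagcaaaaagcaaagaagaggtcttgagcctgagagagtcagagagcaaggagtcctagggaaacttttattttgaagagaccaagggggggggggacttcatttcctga
Capitals mark matches to 5 motifs searched on both strands, namely the GC box written GGGCGG, the TATA box written TATAAA, the palindromic motif of the EBF factors, the nuclear receptor site written AGGTCA and the E-box written CACGTG. The Dpp4 window held TATAAA from position -227 and the EBF motif from position -115, counted from the transcript start, and these 2 matches do not overlap. The Pdgfra window held none of the 5. Among 32851 RefSeq promoter windows of the same length, 12.4% held TATAAA, 0.779% the EBF motif, 32.7% GGGCGG, 14% AGGTCA and 6.02% CACGTG. Of the 9 genes, 7 had an entry in the RefSeq promoter table. Ly6a and Pdgfrb did not.

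Some libraries carried RNA of other sources. Seminal vesicle genes summed to 123060 TPM in HFD 8 week replicate 3 and to at most 15.9 TPM in every other library. Adipocyte markers reached 16490 to 64461 TPM in CHOW 34 week replicates 5, 6 and 7 against 383 to 3761 TPM in all other libraries. Germ cell genes reached 13175 TPM in HFD 20 week replicate 5. They also summed to 5338 and 5738 TPM in HFD 34 week replicates 1 and 2, 2451 and 3130 TPM in HFD 20 week replicates 3 and 4, and 1176 TPM in HFD 8 week replicate 4. The 5 libraries that stand apart are HFD 8 week replicate 3, HFD 20 week replicate 5 and the 3 CHOW libraries. Member fold changes that rest on them are given with and without them below. Correlations were computed only with them included. HFD 34 week replicates 1 and 2 were not among the libraries taken out. No pair of libraries held identical values.

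The 9 genes spanned a wide range of levels, and their order was much the same in all groups. Ly6a (ENSMUSG00000075602, chromosome 15, 74994877 to 74998031, minus strand) was the highest in each of the 6 groups, with group means of 765 to 1023 TPM. Cd34 (ENSMUSG00000016494, chromosome 1, 194938819 to 194961279, plus strand) followed at 217 to 302 TPM. Ly6a belongs to a cluster of closely similar genes, and how Salmon divided reads among them is uncertain. The middle of the order was held by Pi16 (ENSMUSG00000024011, chromosome 17, 29317680 to 29330593, plus strand), Pdgfra, Pdgfrb (ENSMUSG00000024620) and Pparg (ENSMUSG00000000440, chromosome 6, 115360951 to 115490399, plus strand), whose neighbours in this stretch of the order overlapped in range in all groups but CHOW 20 week. Dpp4 was seventh, Zfp423 (ENSMUSG00000045333, chromosome 8, 87661810 to 87959595, minus strand) eighth and Dlk1 (ENSMUSG00000040856, chromosome 12, 109452823 to 109463336, plus strand) last in all 6 groups. Zfp423 had group means of 4.38 to 7.22 TPM and Dlk1 of 0.486 to 1.56 TPM. When the 6 groups were ordered by their mean for any 1 gene, the ranges of neighbouring groups overlapped in every case.

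**Figure D1:**
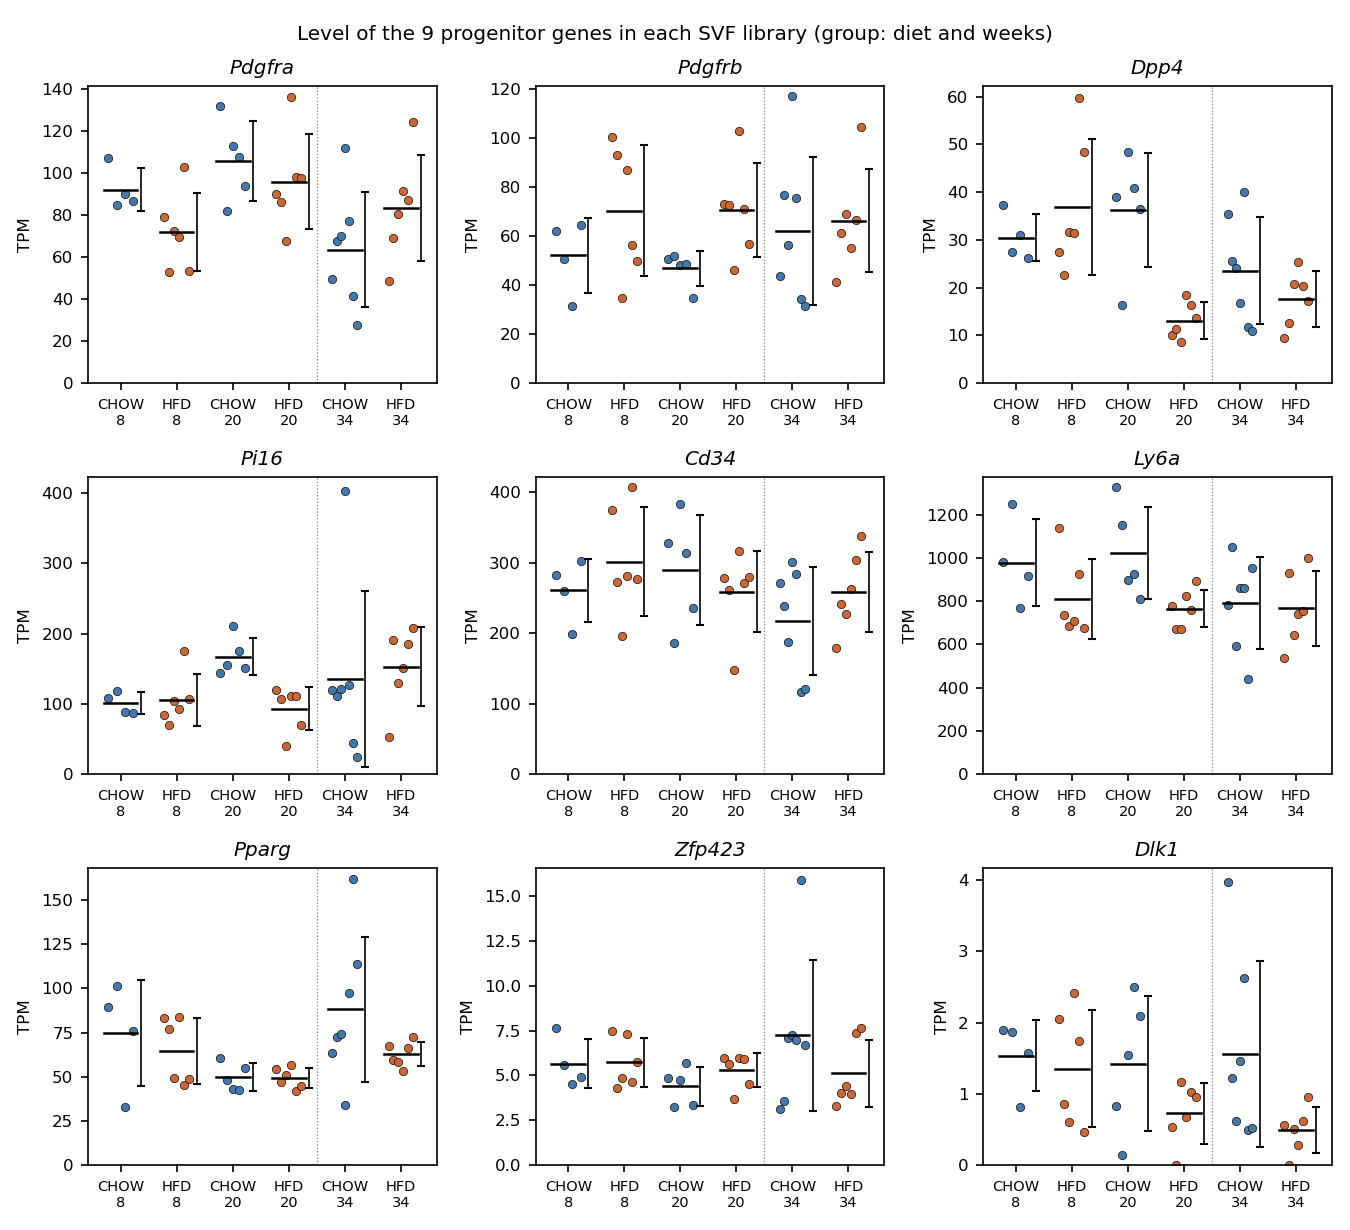
Level of each gene (vertical axes, TPM, from 0) in the 34 libraries, by diet and weeks on the diet (horizontal axes). Points are libraries, blue for CHOW and orange for HFD, horizontal lines are group means, error bars are SDs between libraries, and the dotted line separates the 2 tables. At 20 weeks the HFD libraries sat at 8.49 to 18.5 TPM for Dpp4 and 40.2 to 119 TPM for Pi16, against 16.3 to 48.5 TPM and 144 to 211 TPM on CHOW.

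The first question was whether HFD changed the progenitor genes at each time. At 20 weeks the members called were Dpp4 and Pi16, the interstitial pair, and both were lower on HFD than on CHOW. Of the 9 genes tested, 2 (22.2%) were called, both lower, where 14.3% of all 16808 genes were called in either direction, 9.32% higher and 4.99% lower. Whether the share of the members differs from that of all genes was not tested. The split of all calls, 65.1% of them higher, depended on the scaling and was 47.1% with quantile normalization. No member was called at 8 weeks (0 of 9, with 0.0238% of all genes called) or at 34 weeks (0 of 8, with 0.243% called). At an unadjusted p under 0.05, the whole table held 1630 genes at 8 weeks and 1848 at 34 weeks, and no member was among them. In bulk RNA, fewer cells of a type and less RNA per cell cannot be told apart.

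Dpp4 was at 38.9, 16.3, 48.5, 40.9 and 36.4 TPM in the 5 CHOW libraries of 20 weeks. On HFD its lowest value was 8.49 TPM, its median 12.4 TPM and its highest 18.5 TPM. The groups overlapped through CHOW replicate 2 alone, which lay below HFD replicates 4 and 5, and all other CHOW libraries lay at least at 36.4 TPM. The mean was 36.2 ± 12.0 TPM (SD, n = 5) on CHOW and 13.04 ± 3.87 TPM (n = 6) on HFD. The log2 fold change of TPM + 1 was -1.37 (SE 0.26, limma, adjusted p 0.00193). It stayed past the threshold when any 1 library was left out, and was -1.44 (adjusted p 0.00267) without the HFD libraries that stand apart at 8 and 20 weeks.

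Pi16 was at 144, 155, 211, 175 and 151 TPM in the CHOW libraries of 20 weeks. On HFD it ranged from 40.2 TPM through a median of 109 TPM to 119 TPM. Every HFD library therefore lay below every CHOW library. The means were 167 ± 26.8 TPM (SD, n = 5) and 93.1 ± 31.1 TPM (n = 6), and the log2 fold change was -0.91 (SE 0.24, adjusted p 0.0179). This call was lost without CHOW 20 week replicate 3, the highest library (-0.83, adjusted p 0.0551), and without the 3 HFD libraries with the most germ cell RNA, replicates 3, 4 and 5 (-0.78, adjusted p 0.0637), a choice made after seeing the data. Dpp4 was called in both cases. Without the libraries that stand apart Pi16 was at -0.98 (adjusted p 0.017). Between 8 and 20 weeks Pi16 changed by 0.73 on CHOW (adjusted p 0.246) and by -0.21 on HFD (adjusted p 0.606), neither called. Its HFD mean of 20 weeks lay near the means of 8 weeks, 101 TPM on CHOW and 106 TPM on HFD.

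Genes reported to accompany Dpp4 and Pi16 in interstitial progenitors were read from a list of 14, drawn up with earlier results of these data known. At 20 weeks 5 of the 14 (35.7%) were lower on HFD and none higher, with a median log2 fold change of -0.48 over the list and 0.08 over all genes. Sema3c, a secreted guidance protein, fell by 1.34 on the log2 scale (adjusted p 0.00453), from 41.7 ± 14.2 to 16.01 ± 6.32 TPM. Cd55, a complement inhibitor on the cell surface, fell by 0.88 (adjusted p 0.0255), from 137 ± 43.6 to 73.6 ± 20.6 TPM. The others were Bmp7, a bone morphogenetic protein (-0.92), the chemokine scavenger Ackr3 (-0.83) and the cell adhesion gene Opcml (-0.79). Each of the 5 kept its sign under all alternatives tried, and Sema3c and Opcml were called in 24 of 27 and 24 of 26 of them. Cd55 was called in 19 of 27, Bmp7 in 19 of 26 and Ackr3 in 15 of 27. For Cd55 the estimates ran from -1.46 to -0.07. At 8 and 34 weeks 0 of the 14 were called, with medians of 0.09 and -0.05. Cd34 and Ly6a, which mark these cells more broadly, were not called at 20 weeks. Their log2 fold changes were -0.15 (95% interval -0.60 to 0.30) and -0.40 (-0.74 to -0.06, adjusted p 0.0992). Ly6a was called lower after quantile normalization (-0.49, adjusted p 0.0273) and under median-ratio scaling (-0.47, adjusted p 0.0243). It was also called lower with the erythroid (hemoglobin and Alas2), germ cell and seminal vesicle genes taken out (-0.47, adjusted p 0.0337).

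Markers of other cell types moved along with these genes at 20 weeks. All 8 mesothelial markers were lower on HFD, with a median log2 fold change of -1.96, and their summed level ran from 211 to 709 TPM on CHOW and from 66.7 to 209.6 TPM on HFD. None of the 8 was at 0 in any library. Of 10 adipocyte markers 7 were lower and Lep, which encodes leptin, was higher, and their sum was 897 to 1780 TPM on CHOW and 441 to 643 TPM on HFD. Of 10 macrophage markers 5 were higher, with sums of 5827 to 13676 TPM and 10199 to 17466 TPM. The 5 erythroid genes (Hba-a1, Hba-a2, Hbb-bs, Hbb-bt and Alas2) were all lower (median log2 fold change -1.74). Their sums were 27334 to 130027 TPM on CHOW and 12622 to 30448 TPM on HFD. Of 10 germ cell genes 3 were higher (median 3.498), of 6 T cell markers 2 were lower (median -0.24) and of 5 neutrophil markers 1 was lower (median -1.36). With the erythroid, germ cell and seminal vesicle genes taken out and TPM rescaled, Dpp4 was at -1.43 (adjusted p 0.00205) and Pi16 at -0.98 (adjusted p 0.0136). With the mesothelial score as a covariate, chosen after seeing the data, the log2 fold change of Dpp4 was -0.37 (adjusted p 0.676) and that of Pi16 -0.35 (adjusted p 0.799). With the macrophage score, also chosen afterwards, Dpp4 was at -0.85 (adjusted p 0.0531) and Pi16 at -0.63 (adjusted p 0.169), and with the score of the adipocyte markers they were at -0.71 (adjusted p 0.36) and -0.34 (adjusted p 0.672). These fits called 39, 679 and 44 genes in the whole table, against 2405 without a covariate. All 5 interstitial companions called at 20 weeks were likewise lost with the adipocyte and with the mesothelial score, and Opcml alone of them was still called with the macrophage score. The adipocyte score, the mean log2(TPM + 1) of the list, did not overlap between the diets at 20 weeks (4.50 to 5.31 on HFD, 5.54 to 6.16 on CHOW), nor did the mesothelial score (2.81 to 4.24 and 4.35 to 6.09). At this time diet and either score cannot be told apart.

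**Figure D2:**
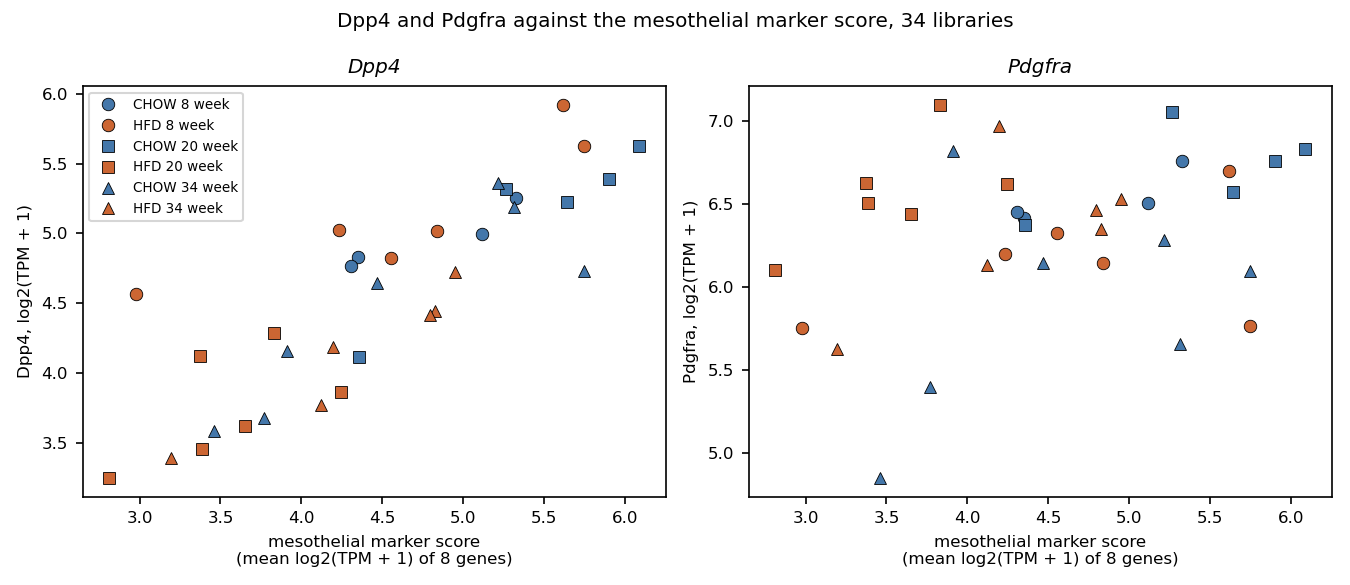
Dpp4 (left) and Pdgfra (right) as log2(TPM + 1) on the vertical axes against the mesothelial marker score, the mean log2(TPM + 1) of 8 genes, in 34 libraries. Colours give the diet and symbols the weeks. Libraries with a higher score had more Dpp4, and the HFD 20 week libraries, with scores of 2.81 to 4.24, were among the lowest in Dpp4. The relation was looser for Pdgfra.

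The PDGF receptors did not pass the test at any time, while 3 of their 4 ligands did at 20 weeks. Pdgfra was at 132, 81.8, 113, 108 and 94.1 TPM on CHOW and at 67.8 to 136 TPM, with a median of 93.7 TPM, on HFD. The groups overlapped almost entirely, and the log2 fold change was -0.15 (95% interval -0.52 to 0.22, adjusted p 0.606). For Pdgfrb the CHOW libraries were at 50.5, 52.0, 48.2, 48.4 and 34.5 TPM and the HFD libraries ran from 46.1 TPM through a median of 71.9 TPM to 103 TPM. Of the 6 HFD libraries 5 lay above all CHOW libraries, and the log2 fold change was 0.55 (95% interval 0.02 to 1.08, adjusted p 0.146). It was called with sample quality weights (0.54, adjusted p 0.039).

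Among the ligands, Pdgfb, which binds both receptors, was at 18.3 ± 5.37 TPM on CHOW and 45.4 ± 13.05 TPM on HFD at 20 weeks. The ranges were 13.8 to 26.9 TPM and 33.2 to 65.1 TPM and did not overlap, and the log2 fold change was 1.26 (SE 0.36, adjusted p 0.025). Pdgfa, the ligand of Pdgfra, went from 11.3 ± 4.32 to 20.3 ± 2.36 TPM and rose by 0.85 (SE 0.27, adjusted p 0.0401). Pdgfd, a ligand of Pdgfrb, went from 16.8 ± 2.41 to 10.4 ± 1.64 TPM without overlap between the diets and fell by 0.64 (SE 0.19, adjusted p 0.0274). Pdgfc did not pass the test (-0.08). These are levels of the whole SVF, and each of the 3 calls was lost with the adipocyte, the macrophage and the mesothelial score. The calls held in 19 of 27 alternatives for Pdgfb, 13 of 27 for Pdgfa and 19 of 27 for Pdgfd, and each kept its sign in all 27. No ligand was called at 8 or 34 weeks.

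Neither Pparg nor Zfp423 was called at 20 weeks, and the lists of genes around them had calls in both directions. Pparg was at 60.8, 48.4, 42.9, 42.7 and 55.2 TPM on CHOW at 20 weeks and at 42.1 to 56.7 TPM (median 49.0 TPM) on HFD, with a log2 fold change of -0.01 (95% interval -0.49 to 0.47). The diets covered the same range. Zfp423 gave 0.23 (-0.14 to 0.60). Of 8 genes that accompany committed preadipocytes, 1 was higher at 20 weeks, Lpl, the lipoprotein lipase, from 471 ± 269.7 to 1664 ± 258 TPM, or by 1.94 on the log2 scale (SE 0.31, adjusted p 0.000376). Macrophages and adipocytes also express Lpl. Of 16 regulators of fat cell formation 1 was higher and 2 were lower, with a median of 0.00. Ccn5, a secreted inhibitor of differentiation, rose by 1.04 (adjusted p 0.0055). Gata3, a transcription factor that restrains differentiation, fell by 1.27 (adjusted p 0.00964), and Cebpd, an early activator of the programme, fell by 0.64 (adjusted p 0.03). The Gata3 call held in 24 of 27 alternatives and that of Cebpd in 17 of 27. Cebpd was not called without CHOW 20 week replicate 3, 4 or 5 or without HFD 20 week replicate 2 or 3. Of 6 genes that accompany the progenitors known to restrain fat cell formation, Mgp, a matrix protein, rose by 1.76 (adjusted p 0.00119) and Vit, another matrix protein, fell by 1.48 (adjusted p 0.000299). Of 8 genes of general stromal identity, the transcription factors Tcf21 (-1.45, adjusted p 0.00175) and Osr1 (-1.22, adjusted p 0.00878) fell. With the adipocyte or the mesothelial score as a covariate none of these calls was kept, except that of Ccn5 with the adipocyte score. None of these lists had a called gene at 8 or 34 weeks.

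Dlk1 was close to the lower limit of the data. It was at 0 TPM in HFD 20 week replicate 2 and HFD 34 week replicate 2 and at 3.97 TPM, its highest, in CHOW 34 week replicate 1. At 20 weeks the values were 0.824, 0.145, 1.55, 2.50 and 2.10 TPM on CHOW and 0 to 1.17 TPM (median 0.816 TPM) on HFD, and the log2 fold change was -0.43 (95% interval -1.04 to 0.19). At 34 weeks it was too low to be tested, with 1.56 ± 1.30 TPM (SD, n = 7) on CHOW and 0.486 ± 0.324 TPM (n = 6) on HFD. The non-coding RNAs of its imprinted cluster, which are expressed from the other parental copy, were far higher. Meg3 had group means of 147 to 258 TPM at 8 and 20 weeks and of 50.9 and 60.5 TPM at 34 weeks. Rian followed at 76.0 to 159 TPM and at 24.7 to 35.9 TPM, and Mirg at 12.1 to 17.2 TPM and 1.41 to 2.26 TPM. The 34 week libraries were quantified in a separate table, so these levels were not tested across the tables. Dio3, a thyroid hormone deiodinase, had group means of 0.661 to 1.60 TPM and the retrotransposon-like Rtl1 at most 0.122 TPM. No gene of the cluster was called in any comparison by the test used throughout, and Dlk1 was called lower at 20 weeks with sample quality weights (-0.71, adjusted p 0.0452) and relative to stromal matrix genes, as given below.

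**Figure D3:**
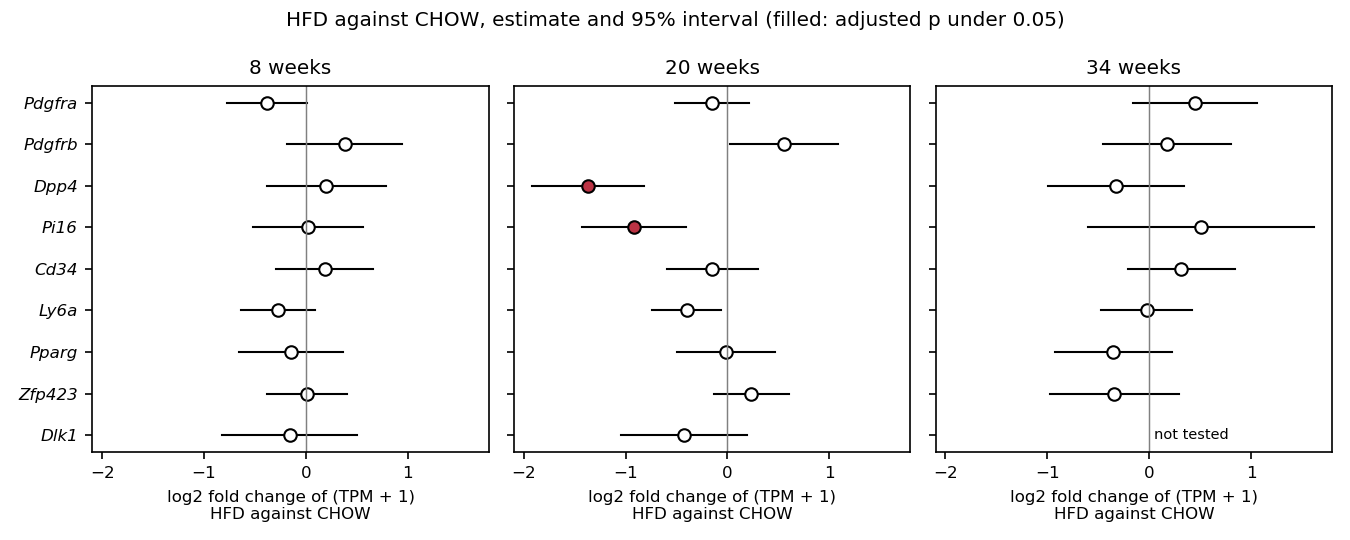
Log2 fold change of TPM + 1 for HFD against CHOW (horizontal axes) of the 9 genes at 8, 20 and 34 weeks. Points are estimates, bars 95% intervals, and filled points passed an adjusted p of 0.05. Only Dpp4 (-1.37) and Pi16 (-0.91) at 20 weeks were called, and Dlk1 was not tested at 34 weeks.

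At 8 weeks the log2 fold changes of the 9 genes lay between -0.38 (Pdgfra, 95% interval -0.78 to 0.01) and 0.38 (Pdgfrb, -0.18 to 0.94). Dpp4 was at 37.2, 27.4, 30.96 and 26.3 TPM on CHOW and from 22.6 TPM through a median of 31.5 TPM to 59.7 TPM on HFD. Pi16 was at 109, 118, 88.1 and 87.2 TPM on CHOW and from 70.1 TPM through 98.7 TPM to 175 TPM on HFD. The diets overlapped for both, with log2 fold changes of 0.20 (-0.38 to 0.79) and 0.02 (-0.52 to 0.56). The remaining 5 members ranged from -0.28 (Ly6a) to 0.19 (Cd34), none past the threshold.

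At 34 weeks the spread between libraries was wider, mostly on CHOW. Dpp4 ran from 10.98 TPM through a median of 24.1 TPM to 40.05 TPM on CHOW and from 9.46 TPM through 18.8 TPM to 25.4 TPM on HFD. Pi16 ran from 24.9 TPM through 119 TPM to 403 TPM on CHOW and from 53.0 TPM through 168 TPM to 208 TPM on HFD. The diets overlapped for both. The log2 fold changes were -0.32 (95% interval -0.99 to 0.34) for Dpp4 and 0.51 (-0.60 to 1.62) for Pi16. Pdgfra gave 0.45 (-0.16 to 1.06), Cd34 0.31 (-0.21 to 0.84), Pdgfrb 0.17 (-0.45 to 0.80) and Ly6a -0.02 (-0.47 to 0.43).

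Pparg was at 63.4, 72.4, 74.3, 34.2, 97.6, 162 and 114 TPM in the CHOW libraries of 34 weeks, in the order of their replicate numbers. Its 3 highest values were those of replicates 5, 6 and 7, the libraries with the most adipocyte RNA. On HFD it stayed between 53.2 and 72.4 TPM. The log2 fold change was -0.35 (95% interval -0.93 to 0.23) with these libraries and 0.10 without them. Zfp423 was at 15.9 TPM in CHOW replicate 6 and at 3.10 to 7.64 TPM in all other libraries of 34 weeks, and its log2 fold change went from -0.34 to -0.01. Without the 3 libraries Pdgfra was at 0.17, Pdgfrb at -0.11, Pi16 at -0.18 and Dpp4 at -0.52, and still no member was called.

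The second question was how the genes changed between 8 and 20 weeks on each diet. On HFD, Dpp4 went from 36.9 ± 14.2 to 13.04 ± 3.87 TPM (SD, n = 6 each) and fell by 1.40 on the log2 scale (SE 0.25, adjusted p 0.00135), and the lowest library of 8 weeks (22.6 TPM) lay above the highest of 20 weeks (18.5 TPM). It was the only member called of 9 (11.1%), where 8.78% of all genes were called, 6.12% higher and 2.65% lower. Of all calls 69.8% were higher, against 40.8% after quantile normalization and 59.1% under median-ratio scaling. As for covariates, the mesothelial score left the call in place (-0.82, adjusted p 0.0158) and the adipocyte score did not (-0.69, adjusted p 0.484). The adipocyte score did not overlap between the 2 times on HFD (5.36 to 6.79 at 8 weeks, 4.50 to 5.31 at 20 weeks). In this comparison time and the adipocyte score cannot be told apart. Without the libraries that stand apart Dpp4 was at -1.50 (adjusted p 0.00299). The other members lay between -0.41 (Dlk1) and 0.42 (Pdgfra, adjusted p 0.114), with Pi16 at -0.21. These fits share the HFD libraries of 20 weeks with the diet comparison of that time, so both results for Dpp4 rest in part on the same 6 libraries.

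Of the interstitial companions, Sema3c (-1.37), Cd55 (-1.04) and Ackr3 (-0.83) fell on HFD between 8 and 20 weeks and none of the 14 rose. Of the 8 committed preadipocyte companions 3 rose, which were Icam1, a cell adhesion receptor (1.53), Lpl (1.35) and Ggt5, a gamma-glutamyltransferase (0.98). Pdgfa rose by 0.85 and Pdgfd fell by 0.72. Of the regulators, Stat5a (1.07) and Cebpd (0.77) rose and Klf4, an early factor of differentiation, fell by 0.83. Mgp rose by 1.66, and Thy1, a surface marker of stromal cells, fell by 1.04. Markers of other cell types moved in the same comparison. Of 10 adipocyte markers 8 fell (median log2 fold change -1.36), with sums of 639 to 1735 TPM at 8 weeks and 441 to 643 TPM at 20 weeks. Of 10 macrophage markers 5 rose (median 0.72), and of 8 mesothelial markers Msln and Krt19 fell (median -1.21). All 5 erythroid genes fell (median -2.08), with sums of 33175 to 267887 TPM and 12622 to 30448 TPM. The calls of Sema3c, Cd55, Ackr3, Lpl, Pdgfa, Pdgfd and Klf4 were lost with each of the adipocyte, macrophage and mesothelial scores. Those of Icam1, Stat5a and Mgp were lost with the adipocyte score, that of Thy1 with the adipocyte and the mesothelial score, and those of Ggt5 and Cebpd were kept with all 3 scores. The calls of Ggt5 and Cebpd held in 26 and 25 of 28 alternatives. Both were lost relative to stromal matrix genes and without HFD 20 week replicates 3, 4 and 5, and Cebpd also after quantile normalization. The Pdgfa call (adjusted p 0.0427) held in 8 of 28 alternatives and was lost without any 1 of the HFD libraries of 20 weeks, or without HFD 8 week replicate 1, 3, 5 or 6. The Ackr3 call (adjusted p 0.0499) held in 16 of 28 and was lost without HFD 8 week replicate 1, 4, 5 or 6, or HFD 20 week replicate 1, 2 or 3.

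On CHOW no member was called between 8 and 20 weeks (0 of 9, with 0.613% of all genes called, and 2104 genes at an unadjusted p under 0.05, Pi16 among them). Pi16 came nearest. Its 4 libraries of 8 weeks (87.2 to 118 TPM) lay below all 5 of 20 weeks (144 to 211 TPM), with a log2 fold change of 0.73 (95% interval 0.16 to 1.29, adjusted p 0.246). Dpp4 gave 0.17 (-0.43 to 0.78). Pparg gave -0.47 (-1.002 to 0.061, adjusted p 0.471) and was called with sample quality weights (-0.77, adjusted p 0.0172). The weights called 1659 genes in all, against 103 without them. Pparg was also called (-0.82, adjusted p 0.0276, with 488 genes called in all) without CHOW 8 week replicate 3 and HFD 8 week replicate 3, a choice made after seeing the data. In the first of these libraries Pparg was at 32.98 TPM, against 75.6 to 101 TPM in the others of its group, and the endothelial markers summed to 244 TPM against 851 to 1169 TPM. Among the companions and regulators, Icam1 (1.39), Stat5a (1.53) and Cebpd (0.97) rose on CHOW as well. The Stat5a call held in 24 of 25 alternatives and that of Icam1 in 19 of 25, lost without CHOW 8 week replicate 4 or CHOW 20 week replicate 3, 4 or 5. The Cebpd call (adjusted p 0.0407) held in 12 of 25 and was lost without any 1 of the CHOW libraries of 8 weeks, or without CHOW 20 week replicate 3, 4 or 5.

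Whether the HFD effect of 20 weeks differed from that of 8 weeks was tested as an interaction. None of the 9 genes was called. Of all genes 0.297% were called, 0.161% higher and 0.137% lower, a split of 54.0% higher that was 35.3% under median-ratio scaling and 17.3% after quantile normalization. An unadjusted p under 0.05 was found for 2318 genes, Dpp4 and Pi16 among them. The difference was -1.57 (95% interval -2.37 to -0.77, adjusted p 0.096) for Dpp4 and -0.94 (-1.68 to -0.19, adjusted p 0.298) for Pi16. For Dpp4 it was called without HFD 8 week replicate 2 (-1.69, adjusted p 0.0398), without CHOW 20 week replicate 2 (-1.83, adjusted p 0.0123) and with sample quality weights (-1.79, adjusted p 0.00941). The weights called 400 genes in all, against 50 without them. Pdgfra gave 0.23 (-0.30 to 0.77).

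Since the SVF is a mixture, the members were also expressed relative to 8 stromal matrix genes (Dcn, Lum, Col1a1, Col1a2, Col3a1, Col6a1, Serpinf1 and Mmp2), whose mean log2 value was subtracted in each library. Of these genes Mmp2 (0.97), Lum (0.89) and Serpinf1 (0.69) were themselves higher on HFD at 20 weeks and Dcn was lower (-0.61), so the reference moved. The Dcn call (adjusted p 0.0403) held in 13 of 27 alternatives, and its sign turned with the adipocyte score (0.002). Those of Mmp2, Lum and Serpinf1 held in 24, 22 and 23 of 27. On this scale 6 of the 9 members were lower on HFD at 20 weeks, namely Dpp4 (-1.94, adjusted p 0.000167), Pi16 (-1.49, adjusted p 0.00104), Dlk1 (-0.9997, adjusted p 0.0283), Ly6a (-0.98, adjusted p 0.00351), Pdgfra (-0.73, adjusted p 0.0117) and Cd34 (-0.73, adjusted p 0.0102). Pparg (-0.59), Zfp423 (-0.34) and Pdgfrb (-0.02) were not called. The same step took the median of all genes from 0.08 to -0.50 and called 36.8% of them lower, with 413 of 6605 calls higher, against 1566 of 2405 on the TPM scale. Pdgfra and Cd34 thus lay nearer to the median of all genes on this scale than Dpp4 and Pi16 did. At 8 and 34 weeks no member was called on this scale.

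**Figure D4:**
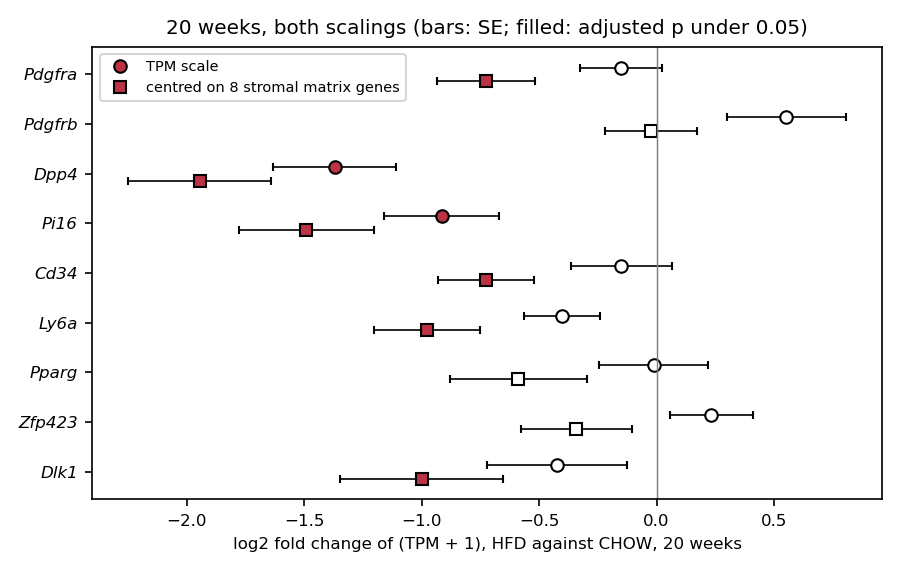
Log2 fold change at 20 weeks, HFD against CHOW (horizontal axis), on the TPM scale (circles) and after subtraction of the mean of 8 stromal matrix genes in each library (squares). Bars are SEs and filled symbols passed an adjusted p of 0.05. By construction the shift was about the same for every gene, the median of all genes included, which went from 0.08 to -0.50, and Dpp4 and Pi16 were lowest on both scales.

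Within groups, the members followed different cell type scores. The correlations below are between deviations from group means in log2(TPM + 1), over 21 libraries at 8 and 20 weeks and over 13 at 34 weeks, and are descriptions, since all points of a library share its cell mixture and its TPM total. Dpp4 varied with the mesothelial score, with r = 0.83 in the earlier libraries and 0.90 at 34 weeks. Pdgfrb varied with the score of 8 mural cell markers (0.90 and 0.57), the pericytes and smooth muscle cells of the vessel wall, where this receptor is also expressed. It varied as well with the endothelial score (0.79 and 0.55) and with the stromal matrix score (0.71 and 0.86), the closest of the 3 at 34 weeks. Pparg varied with the endothelial (0.89) and mural (0.82) scores at 8 and 20 weeks. At 34 weeks it varied with the adipocyte score (0.87) and inversely with the macrophage score (-0.86), and its r with the endothelial score was 0.04. The 34 week values include CHOW replicates 5, 6 and 7, highest in adipocyte score (9.40, 11.5 and 9.79) and in Pparg. Replicate 6 also had the lowest macrophage score of that time (7.92). No r was computed without these libraries. Pdgfra, Pi16 and Cd34 varied with the stromal matrix score at 34 weeks (0.76, 0.75 and 0.78) and less so before (0.46, 0.15 and 0.59).

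**Figure D5:**
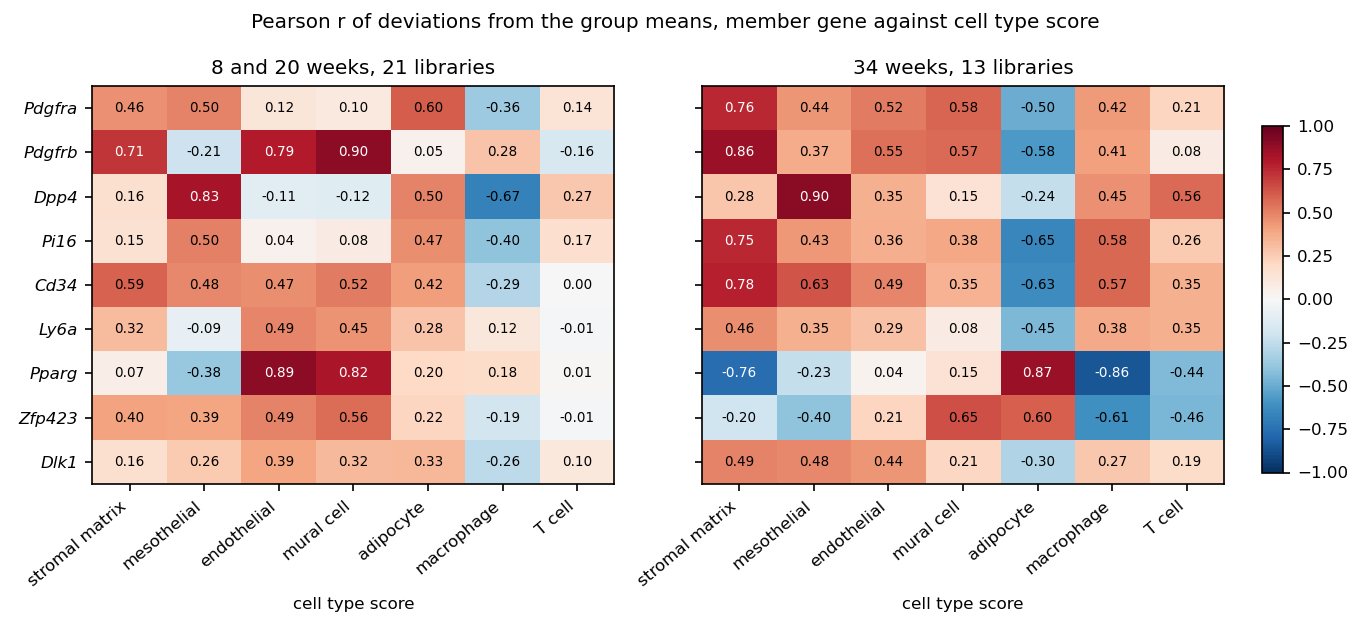
Pearson r between each gene (rows) and the scores of 7 cell type lists (columns) over deviations from group means, in 21 libraries of 8 and 20 weeks (left) and 13 of 34 weeks (right). Red is positive and blue negative. Dpp4 was closest to the mesothelial score in both panels (0.83 and 0.90). Pparg was closest to the endothelial score on the left (0.89) and to the adipocyte score on the right (0.87). The right panel includes the CHOW libraries with the most adipocyte RNA.

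By the same measure the genes most like each member were sought among 10632 genes with a mean of at least 5 TPM over the 21 libraries. Dpp4 was closest to Sema3c, one of its interstitial companions (r = 0.95, and 0.93 over the 13 libraries of 34 weeks), then to the cell-surface receptors Cdon (0.95 and 0.83) and Neo1 (0.93 and 0.80). Cd34 was closest to Selenom (0.94 and 0.92), Nfix (0.94 and 0.66) and Sdc2 (0.93 and 0.66). The neighbours of Pdgfrb were the basement membrane collagen Col4a2 (0.94 and 0.47), the apelin receptor Aplnr (0.94 and 0.33) and Soga1 (0.94 and 0.82). For Pdgfra they were Ndn (0.90 and 0.32), Ccdc80 (0.87 and 0.33) and Tmem100 (0.87 and 0.85). Pparg was nearest to Cyp4b1 (0.93), Pkp4 (0.93) and Exoc6 (0.92), none of which followed it at 34 weeks (0.28, 0.07 and 0.02). For Pi16 the highest r was 0.79 (Pcsk6), for Ly6a 0.86 (Zfp639), for Zfp423 0.76 (Prickle2) and for Dlk1 0.85 (Lipg, -0.63 at 34 weeks).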

How the data were processed

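RNA-seq was done on 34 SVF libraries, prepared with a stranded poly(A) kit. Per the study's methods and the labels, the authors checked and trimmed reads (FastQC, MultiQC, Trimmomatic), quantified them with Salmon on gencode M10 (mm10), summed transcripts to genes and deposited TPM, with 1 table for 8 and 20 weeks (21 libraries) and 1 for 34 weeks (13). No tool version is given in the sources used here, and the authors' DESeq2 results were not used. Per-library depth is unknown, and a gene's TPM falls when other genes take more of the total.

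Gene IDs, without version, were matched to gencode M21 (31791 of 32098). Genes reaching 1 TPM in 4 libraries (8 and 20 weeks) or in 6 (34 weeks) were tested on log2(TPM + 1) with limma 3.58.1 in R 4.3.3 (group means, eBayes with trend, two-sided, Benjamini-Hochberg over all genes, threshold 0.05, called below it), with 1 fit per table and no test across tables. Fold changes on this scale understate low genes. The script was tested on simulated data. Groups came from sample titles. The study counts mice per group, but nothing ties a library to 1 animal, so p-values measure the spread between libraries. The members and gene lists were chosen with earlier results of these data known. Named genes are the members, the genes of the Dlk1 cluster, up to 2 highest and 2 lowest called genes per progenitor list and comparison (other called genes of the interstitial list and of the matrix list were named after their values were seen), and 3 genes most like each member. Alternatives were 2 filters, another pseudocount (0.1 TPM), 4 scalings, an adipocyte covariate, a replicate block, sample weights, fits of 2 groups and left-out libraries, and 4 more were chosen after seeing the data.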

Additional observations from a re-analysis of the deposited data

Results flagged for a closer look

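Of 54 groups of values tested with Dixon's rule, 5 had a library far from the others, where chance alone gives about 1 in 20. Cd34 was at 148 TPM in HFD 20 week replicate 3, and the next library of the group was at 261 TPM. The same library was also the lowest of its group for Dpp4 (8.49 TPM), Pi16 (40.2 TPM) and Pdgfra (67.8 TPM). Pdgfrb was at 34.5 TPM in CHOW 20 week replicate 5, below the next library at 48.2 TPM. Pi16 was at 403 TPM in CHOW 34 week replicate 4 with the next at 127 TPM, and at 175 TPM in HFD 8 week replicate 5 with the next at 107 TPM. Zfp423 was at 15.9 TPM in CHOW 34 week replicate 6, above the next library at 7.23 TPM, and this library had the highest Pparg level (162 TPM) and the highest sum of adipocyte markers (64461 TPM) of all libraries.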

How the results depend on the processing

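For 37 results on single genes, 394 of 446 alternatives kept the direction and the side of the threshold and 31 turned the direction, and so did 420 and 20 of 443 fits with 1 library left out. These were all tested diet comparisons and a chosen part of the others. Only Dpp4 and Pi16 at 20 weeks and Dpp4 on HFD over time were called, so for the rest the side kept was not called. The settings chosen after seeing the data were counted only for these and for Pparg on CHOW over time. The number of members called at 20 weeks, 2 in the report, was 6 after stromal matrix centring, 4 with sample quality weights, 1 without HFD 20 week replicates 3, 4 and 5, 0 with the adipocyte, macrophage or mesothelial score, and 1 to 2 with 1 library left out. Between 8 and 20 weeks on HFD, 1 member was called, and 0 with the adipocyte score. On CHOW it was 0, and 1 with sample quality weights or without both 8 week replicates 3, and 0 in every fit with 1 library left out. The weights called 1659 genes in all and the fit without both replicates 3 called 488, against 103 in the report. For the interaction it was 0, 1 with sample quality weights (400 genes in all, against 50), and 0 to 1 with 1 library left out. The adipocyte score turned Pdgfra (0.055), Pparg (0.051) and Dlk1 (0.24) at 8 weeks, Pdgfra (0.36), Cd34 (0.29), Pparg (0.22) and Dlk1 (0.043) at 20 weeks, Pdgfrb (-0.26), Pi16 (-0.37), Cd34 (-0.071), Pparg (0.24) and Zfp423 (0.10) at 34 weeks, and Pi16 (0.41) and Dlk1 (0.090) on HFD over time. Stromal matrix centring turned Pi16 (-0.17), Cd34 (-0.011) and Zfp423 (-0.19) at 8 weeks, Pdgfrb (-0.022) and Zfp423 (-0.34) at 20 weeks, and Pdgfra (-0.14) in the interaction. Sample quality weights turned Pi16 at 8 weeks (-0.046), Pparg at 20 weeks (0.088) and Zfp423 at 34 weeks (0.064), and quantile normalization Ly6a at 34 weeks (0.00042). Without the libraries that stand apart Pparg was at 0.030 at 20 weeks, and Pdgfrb (-0.11), Pi16 (-0.18) and Pparg (0.10) turned at 34 weeks. With 1 library left out, values crossed 0 for Pi16 (-0.13 to 0.13), Pparg (-0.49 to 0.036) and Zfp423 (-0.074 to 0.14) at 8 weeks, Cd34 (-0.30 to 0.0022) and Pparg (-0.065 to 0.060) at 20 weeks, Ly6a (-0.16 to 0.075) at 34 weeks and Pi16 on HFD over time (-0.32 to 0.0097). None of these turned values was past the threshold in the report. The cause was not tested.

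Groups share replicate numbers, and the labels do not say whether these pair the libraries. Deviations of libraries with the same number had a mean r of 0.0873 over 28 pairs at 8 and 20 weeks, 12 of them above 0.1. For 136 pairs with different numbers the mean was -0.0172. At 34 weeks the means were 0.0631 over 6 pairs and -0.0094 over 36 other pairs. These values do not settle whether the numbers pair libraries. With the replicate block 3 members were called at 20 weeks, Pdgfrb (0.62, adjusted p 0.0211) beside Dpp4 and Pi16, and 3597 genes in all against 2405. With the replicate block Pi16 turned at 8 weeks (-0.033), Pparg at 20 weeks (0.035) and Ly6a at 34 weeks (0.030), and the numbers of members called in the other comparisons did not change. Over all genes at 20 weeks, 3608 were called with median-ratio scaling, 6605 with stromal matrix centring, 5092 with sample quality weights and 958 without HFD 20 week replicates 3, 4 and 5. Depth is unknown, so the precision of Dlk1 and other low genes cannot be given beyond the spread between libraries.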

Other observations

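Pairs of members varied together within groups to different degrees in the earlier and the later libraries. These are descriptions over deviations from group means, in libraries that share a cell mixture and a TPM total for every gene. All include the libraries that stand apart, and none was repeated without them. At 34 weeks CHOW replicates 6 and 7, among these, were lowest for Pdgfra, at 41.3 and 27.9 TPM. They were also lowest for Pdgfrb (34.3 and 31.4 TPM) and Pi16 (43.7 and 24.9 TPM). Pdgfra and Pdgfrb had r = 0.24 over the 21 libraries of 8 and 20 weeks and 0.94 over the 13 libraries of 34 weeks. Pdgfrb and Pi16 had 0.12 and 0.88, and Pdgfra and Pi16 0.58 and 0.92. Pdgfra and Cd34, both general progenitor markers, had 0.69 and 0.83. Dpp4 and Pi16, both called lower on HFD than on CHOW at 20 weeks, had 0.59 and 0.52. Their deviations were thus no closer to each other than those of Dpp4 and Cd34 (0.61 and 0.73). Pparg went the other way, from 0.66 with Pdgfrb to -0.62, and from -0.17 with Pi16 to -0.76.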
